A study of Oryza sativa with 14 samples.

Results

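Transcripts of the enzymes of the Calvin cycle and of photorespiration were followed in leaves of the rice cultivar Koshihikari. The members were the 59 loci, of 37727 in the count tables, whose description holds at least 1 of 14 search terms naming these enzymes, such as ribulose, phosphoribulokinase, glycolate oxidase or glyoxylate. Of the 14 terms, 2 matched no locus. Wild-type plants were grown in paddy fields with either chemical fertilizer (CF), at 56 kg N, 176 kg PO4, 56 kg K, 90 kg Mg and 120 kg SiO2 per hectare, or hairy vetch ploughed in as green manure (GM) with no chemical fertilizer. Seedlings of all groups were raised in trays set in a fertilized field before transplanting. In 2023, leaves were taken 47 days after transplanting after a vetch sowing of 30 kg of seed per hectare (4 libraries per treatment). In 2024 the leaves were taken at 38 days after a sowing of 60 kg per hectare (3 libraries per treatment). Each library is the largest leaf of a vegetative plant, taken in the morning. The labels give neither the number of fields per treatment nor which sowing date each group had, so p-values measure the spread between leaves, and effects of field or sowing date cannot be told apart from those of the fertilizer.

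The Calvin cycle fixes CO2 in the chloroplast. Rubisco, built of plastid-encoded large and nuclear-encoded small subunits and kept active by Rubisco activase, joins CO2 to ribulose bisphosphate, phosphoglycerate kinase (PGK) and glyceraldehyde-phosphate dehydrogenase (GAPDH) reduce the product, and a chain of further enzymes regenerates the acceptor. Rubisco also reacts with oxygen, and photorespiration recovers the carbon through glycolate oxidase, glyoxylate aminotransferases, the glycine decarboxylase complex, serine hydroxymethyltransferase (SHMT) and hydroxypyruvate reductase. In leaves of plants such as rice, Rubisco is the largest store of leaf nitrogen.

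Total counts per library were 8161851 to 11375515 in 2023 and 13224671 to 23367369 in 2024. On the first principal component of 2023, green manure leaves 1 and 2 lay at 22.8 and 51.8 and the remaining 6 libraries between -28.7 and 2.88, and calls of named genes that change without one or both are given beside them. CPM below are reads scaled to library size with TMM factors. The leaf marker CAB1R had group means of 13427 to 18145 CPM and CAB2R of 2954 to 16783 CPM. Of 4 markers of root and dividing tissue, OsLsi2 and OSH1 had no read in any library. The dividing-cell gene OsCDKB2;1 had group means of 0.352 to 1.79 CPM and had too few reads to be tested in 2023. In 2024 its log2 fold change with GM was 1.58 (unadjusted edgeR p under 0.05), not called. The root silicon transporter OsLsi1 had means of 12.3 (CF) and 22.8 CPM (GM) in 2023 and 22.2 and 29.4 CPM in 2024, not called (adjusted p = 0.0633 and 0.136, edgeR). The part of other cells in the results was not tested. In whole leaves, fewer cells of a type and less RNA per cell cannot be told apart.

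Members had very different numbers of reads. Rubisco activase RCA (Os11g0707000, chromosome 11) had the highest count of all genes in each of the 14 libraries, and RBCS (Os12g0274700, chromosome 12), a Rubisco small subunit gene, ranked between 2 and 18. At the other end, 3 members, Os12g0291200, Os09g0278300 and Os01g0225500, had no read in any library. After the filter on low counts, 48 members were tested in 2023 and 50 in 2024. All 59 members together took 6.84 to 8.52% of the reads with CF in 2023, 7.03 to 9.18% with GM in 2023, 11.5 to 11.8% with CF in 2024 and 12.1 to 13.96% with GM in 2024. Reads were not corrected for transcript length, so they rank genes by reads and not by transcript level.

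Few of these genes differed between the treatments beyond the spread between leaves. In 2023, 1 of the 48 tested members was called higher and 0 lower at a Benjamini-Hochberg adjusted p under 0.05 (edgeR quasi-likelihood F-test over all genes). The background was 2.48% of 18577 tested genes called, 1.63% higher and 0.851% lower. At an unadjusted p under 0.05 there were 12 members, against 15.5% of all genes. DESeq2 called 4 members higher (PGK2, OsGAPB, RPE and Os03g0338000), against 2.99% of all genes, and 0 lower, against 1.5%. In 2024, 3 of 50 members were called higher and 0 lower, against 3.25% of 19261 genes called, 1.89% higher and 1.36% lower. At an unadjusted p under 0.05 there were 16 members in 2024, against 17.1% of all genes. DESeq2 called 6 members higher (RBCS, RBCS3, RBCS4, PGK3, OsGAPB and GLYR1), against 3.09% of all genes, and 0 lower, against 1.89%. Without GM leaf 1 of 2024, edgeR called 11 members higher: RBCS, RBCS3, RBCS4, RBCS5, PGK3, OsGAPB, OsPrk, RPE, GDCH, OsHPR2 and GLYR1. Leaving out that leaf also raised the number of all genes called from 626 to 1603. The log2 fold change was above 0 for 70.8% of tested members in 2023 and 74% in 2024, against 49.8% and 49.1% of all tested genes. The median log2 fold change of the tested members was 0.13 in 2023 and 0.18 in 2024, against -0.0012 and -0.0048 for all genes. Among genes with a mean of at least 500 CPM, the median was 0.22 for 21 members and 0.23 for all 244 genes in 2023, and 0.27 and 0.15 in 2024. Of those 244 genes, 10.7% were called higher in 2023 and 13.9% in 2024, against 0 and 3 of the 21 members. When libraries were scaled by their totals alone, the median of the members was -0.06 in 2023 and -0.04 in 2024 and that of all genes -0.18 and -0.21, so the members kept a higher median than all genes, but the sign of their own median followed the scaling.

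**Figure D1:**
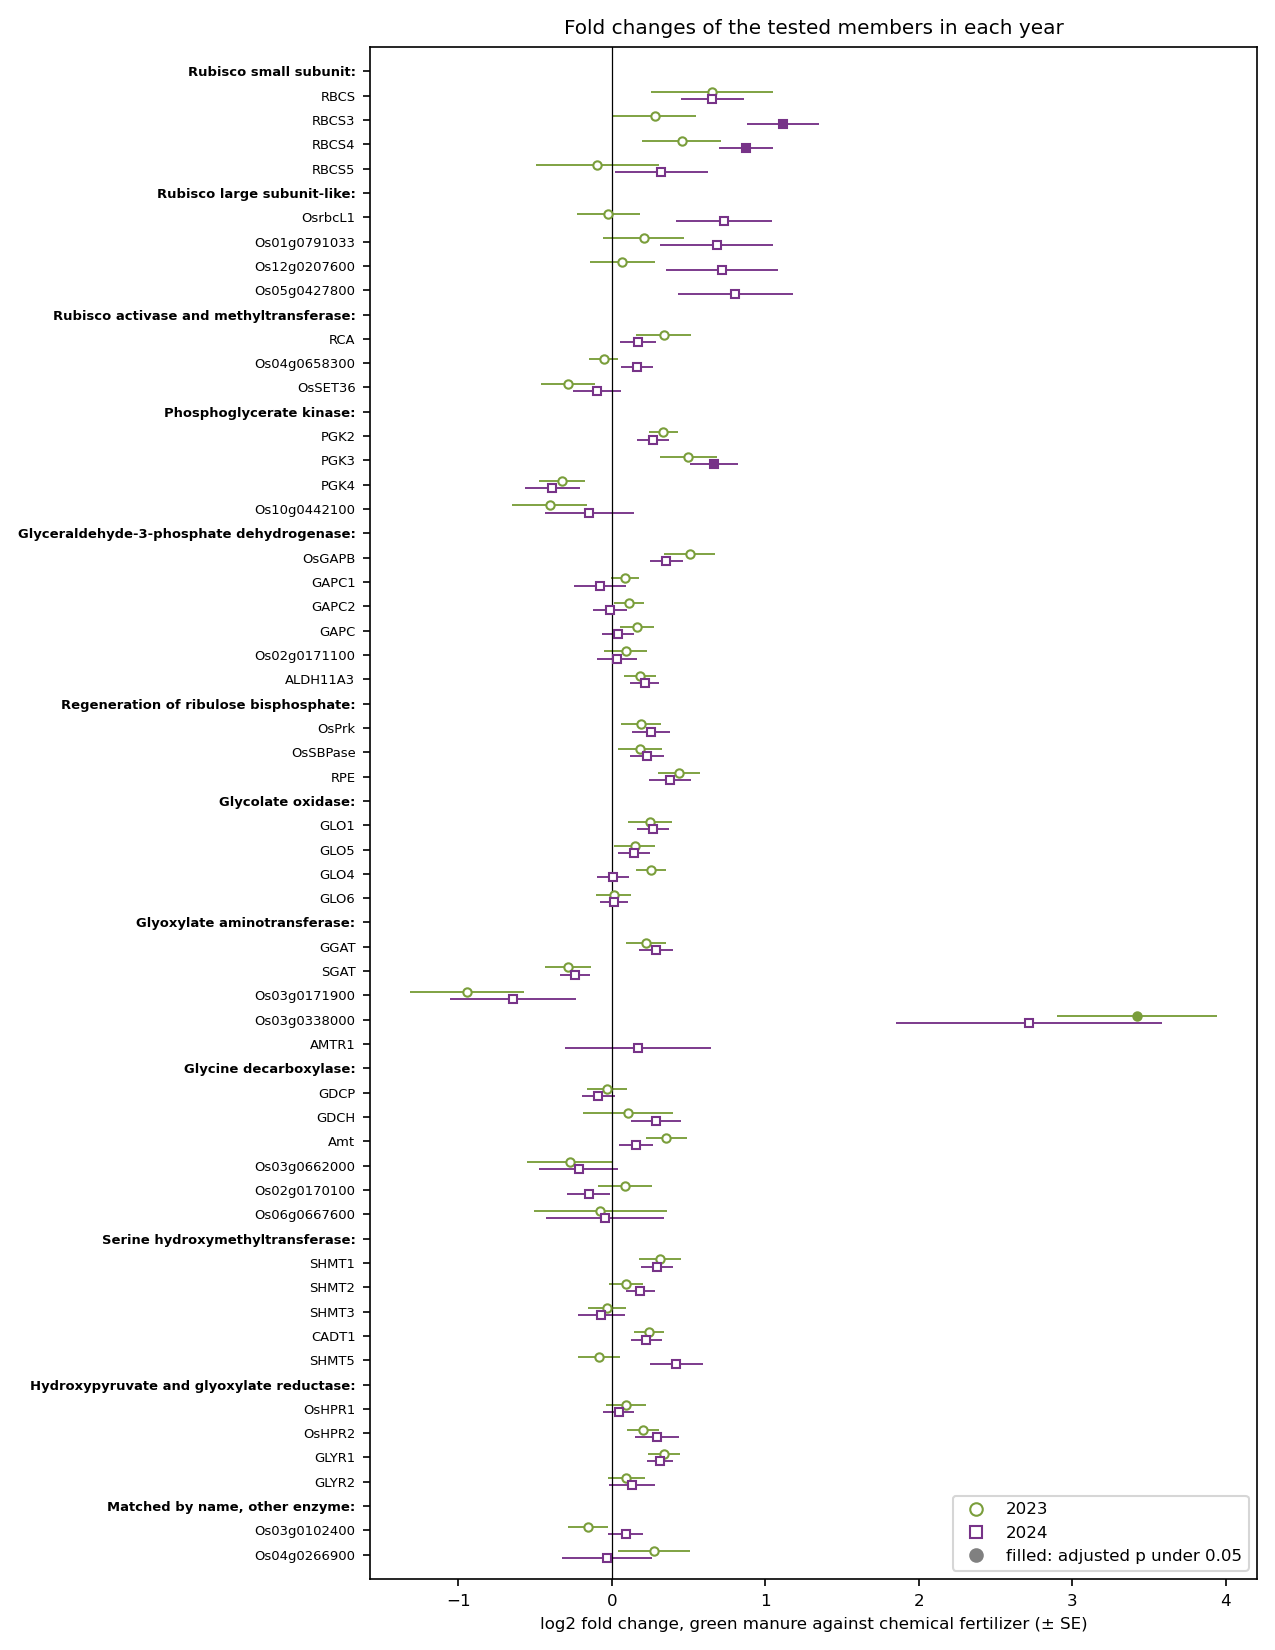
Log2 fold change of green manure against chemical fertilizer for the members tested in 2024, by enzyme group, with bars of ± 1 SE. Circles are 2023 and squares 2024, filled where the adjusted p is under 0.05. Of the filled symbols, 1 belongs to 2023 (Os03g0338000) and 3 to 2024 (RBCS3, RBCS4 and PGK3), and the cytosolic GAPDH genes and glycolate oxidase GLO6 lie near 0 in both years.

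Of the 4 tested Rubisco small subunit genes, 2 were called higher with GM in 2024. RBCS3 (Os12g0291100, chromosome 12) was at 7759, 7221 and 8791 CPM in CF libraries 1 to 3 of 2024 and at 10960, 22710 and 18190 CPM in GM libraries 1 to 3. All 3 GM leaves lay above all 3 CF leaves, and GM leaf 1 was much closer to them than the other GM leaves. The mean went from 7924 ± 798 to 17286 ± 5926 CPM (SD, n = 3 per group), a log2 fold change of 1.12 ± 0.24 (SE, edgeR adjusted p = 0.0428). RBCS4 (Os12g0292400, chromosome 12) was at 3829, 3678 and 4251 CPM with CF and 5182, 8935 and 7569 CPM with GM, again without overlap (log2 fold change 0.87 ± 0.18, edgeR adjusted p = 0.0258). RBCS itself, the small subunit gene with the most reads, went from 21141 ± 1750 to 33549 ± 10272 CPM (SD, n = 3) and was not called (0.66 ± 0.21, edgeR adjusted p = 0.127), and GM leaf 1 at 22280 CPM lay below the highest CF leaf at 22450 CPM. RBCS was called by DESeq2 (adjusted p = 0.00603) and by edgeR without GM leaf 1 (0.88, adjusted p = 0.000302). The calls of RBCS3 and RBCS4 were lost when any leaf of 2024 other than GM leaf 1 was left out (adjusted p of 0.0882 to 0.136 for RBCS3 and 0.0568 to 0.112 for RBCS4) and when all 14 libraries shared 1 fit (0.102 and 0.142), and that of RBCS3 also with no filter on low counts (0.182). The copies are near-identical in sequence and only unique reads were counted, so how reads were divided among RBCS, RBCS3, RBCS4 and RBCS5 is uncertain.

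In 2023 none of the 4 tested small subunit genes was called. RBCS was at 6639, 3473, 7399 and 8196 CPM in CF leaves 1 to 4 and at 3858, 12220, 12360 and 12110 CPM in GM leaves 1 to 4. In the GM group, leaf 1 was at about the level of the lowest CF leaf, and the other 3 lay above all CF leaves. The log2 fold change was 0.65 ± 0.40 (edgeR adjusted p = 0.493), and without GM leaf 1 it was 0.92 (adjusted p = 0.0398). RBCS3 and RBCS4 changed by 0.28 ± 0.27 and 0.45 ± 0.26 in 2023 (edgeR adjusted p = 0.686 and 0.442). The larger change of RBCS3 in 2024 did not pass the test of the difference between years (interaction 0.84 ± 0.43, edgeR adjusted p = 0.791). As a share of all reads, the 5 small subunit loci took 1.05 to 2.84% in GM leaves of 2023 and 3.34 to 5.55% in GM leaves of 2024, and the lowest value of each belonged to leaf 1.

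The 5 members described as Rubisco large subunit are nuclear loci, whereas the working large subunit gene lies in the plastid genome. Reads at these loci cannot be told apart from plastid transcripts here. The one with the most reads, Os01g0791033, was at 222 ± 39.0 CPM with CF and 258 ± 90.8 CPM with GM in 2023 (SD, n = 4), and at 176 ± 38.1 and 285 ± 134 CPM in 2024 (SD, n = 3), with overlapping leaves in both years. None of these loci was called in either year by the test used throughout.

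RCA, the chaperone that frees Rubisco of bound sugar phosphates, did not pass the test in either year. Its CPM in 2023 was 16410, 16060, 18300 and 21070 with CF and 22360, 28900, 19350 and 20620 with GM, with overlap between the groups (log2 fold change 0.34 ± 0.18, edgeR adjusted p = 0.385). In 2024 it was 49440, 44810 and 44590 with CF and 52160, 54780 and 50310 with GM. All GM leaves of 2024 lay above all CF leaves, yet the change was small (0.17 ± 0.12, edgeR adjusted p = 0.514), and with scaling by totals alone its sign turned (-0.0458).

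**Figure D2:**
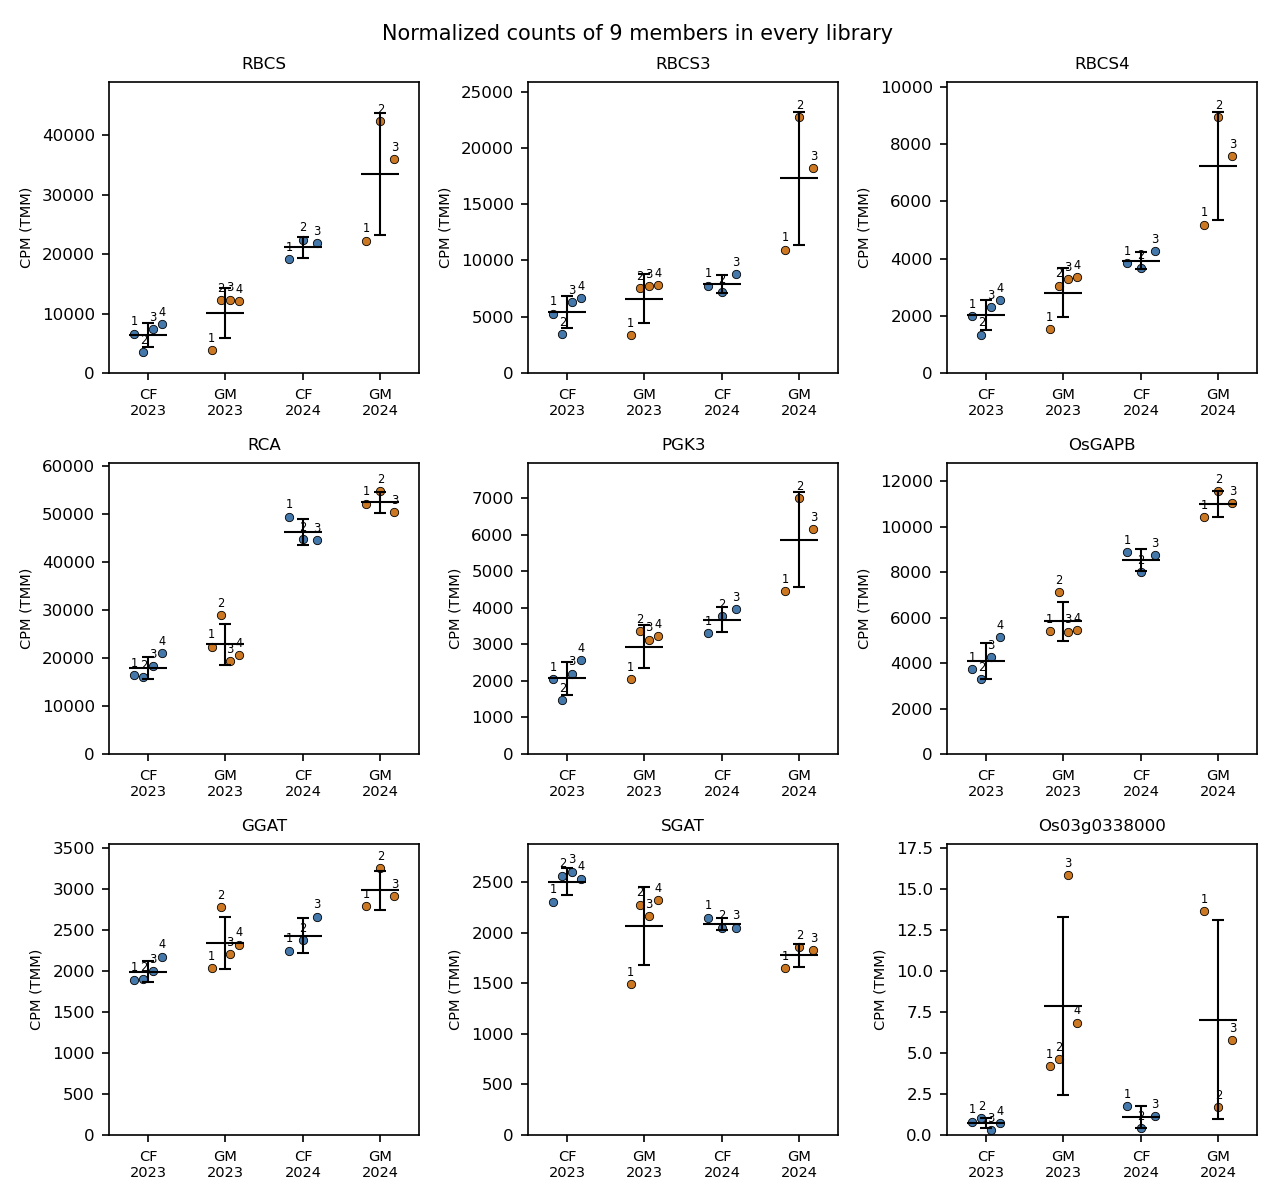
Normalized read counts (CPM, TMM scaling) of 9 members in each of the 14 libraries, with the leaf number beside each point, the mean as a horizontal bar and the SD as an error bar. GM leaf 1 is the lowest GM point for RBCS, RBCS3, RBCS4 and PGK3 in both years, and SGAT is the panel in which the GM mean is below the CF mean in both years.

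Of the reduction steps, PGK3 (Os05g0496200, chromosome 5), the phosphoglycerate kinase gene with the most reads, was called in 2024. It was at 3307, 3766 and 3958 CPM with CF and 4451, 7007 and 6149 CPM with GM. The groups did not overlap, and the log2 fold change was 0.66 ± 0.16 (edgeR adjusted p = 0.0418). In 2023 PGK3 was at 2052, 1468, 2198 and 2572 CPM with CF and 2057, 3353, 3126 and 3225 CPM with GM, where GM leaf 1 fell among the CF leaves. The call of 2024 was lost without any 1 leaf of 2024 other than GM leaf 1 (adjusted p of 0.108 to 0.186), in 1 fit of all libraries (0.104), with scaling by totals alone (0.0537) and with a filter at 5 CPM (0.0531). The change of 2023 was 0.50 ± 0.19 (edgeR adjusted p = 0.196), and 0.64 without GM leaf 1 (adjusted p = 0.0424).

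The other PGK genes did not move as 1 group. PGK2, described as a cytosolic form, was higher in all GM leaves than in all CF leaves of both years, with log2 fold changes of 0.34 ± 0.09 and 0.27 ± 0.11 (edgeR adjusted p = 0.0757 and 0.215). In 2023 it was called by DESeq2 (adjusted p = 0.0149) and by edgeR in 1 fit of all libraries (0.0487). PGK4 was at a low 14.3 ± 2.05 CPM with CF and 11.5 ± 1.77 CPM with GM in 2023, and at 7.43 ± 1.31 and 5.65 ± 0.575 CPM in 2024, with log2 fold changes of -0.32 and -0.39 (edgeR adjusted p = 0.32 and 0.295). PGK2, like SGAT, GLO5, RBCS5, OsrbcL1, Os12g0207600, OsSBPase, RPE, GAPC, SHMT5, GDCH, OsHPR2 and Os03g0171900, was named after its values were seen.

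OsGAPB (Os03g0129300, chromosome 3), the beta subunit of chloroplast GAPDH, separated the treatments in both years without being called. In 2023 it was at 3723, 3283, 4258 and 5136 CPM with CF and at 5412, 7129, 5385 and 5461 CPM with GM. In 2024 it was at 8882, 7995 and 8740 CPM with CF and 10410, 11550 and 11040 CPM with GM. All GM leaves thus exceeded all CF leaves of their year, with log2 fold changes of 0.51 ± 0.17 and 0.36 ± 0.11 (edgeR adjusted p = 0.132 and 0.104). DESeq2 called it in both years (adjusted p = 0.0183 and 0.0125), and edgeR in 2023 in 1 fit of all libraries (0.0466) and in 2024 without GM leaf 1 (0.0217). The cytosolic form GAPC was at 857 ± 47.8 and 964 ± 44.0 CPM in CF and GM of 2023 and 899 ± 46.5 and 930 ± 95.1 CPM in 2024 (log2 fold changes 0.17 and 0.04, edgeR adjusted p = 0.513 and 0.902). All GM leaves of GAPC also exceeded all CF leaves in 2023, while the groups overlapped in 2024.

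The 3 enzymes of acceptor regeneration found by the search were phosphoribulokinase (OsPrk), sedoheptulose bisphosphatase (OsSBPase) and ribulose-phosphate epimerase (RPE). OsPrk, which makes ribulose bisphosphate, was at 2372 ± 177 and 2718 ± 297 CPM in CF and GM of 2023 (SD, n = 4) and at 3583 ± 281 and 4306 ± 599 CPM in 2024 (SD, n = 3). Its log2 fold changes of 0.19 ± 0.13 and 0.26 ± 0.12 were not called (edgeR adjusted p = 0.534 and 0.325). RPE had 0.44 ± 0.14 and 0.38 ± 0.14 (edgeR adjusted p = 0.121 and 0.17), and OsSBPase 0.19 and 0.23, all not called. RPE was called in 2023 by DESeq2 (adjusted p = 0.0326), without GM leaf 1 (0.53, adjusted p = 0.0364) and without GM leaves 1 and 2 (0.41, adjusted p = 0.0344), and in 2024 without GM leaf 1 (0.50, adjusted p = 0.0127). OsPrk was also called in 2024 without GM leaf 1 (0.35, adjusted p = 0.0488).

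Among glyoxylate aminotransferases, 1 minor gene gave the only call of 2023. Os03g0338000 (chromosome 3), described as similar to an alanine--glyoxylate aminotransferase, had 9, 11, 3 and 8 reads in CF leaves 1 to 4 of 2023 and 54, 45, 174 and 67 reads in the GM leaves. That is 0.715 ± 0.302 against 7.87 ± 5.42 CPM (SD, n = 4), with no overlap and a log2 fold change of 3.42 ± 0.52 (edgeR adjusted p = 0.00782). In 2024 it had 24, 6 and 24 reads with CF and 210, 16 and 77 reads with GM. Here GM leaf 2, at 1.70 CPM, fell below the highest CF leaf at 1.77 CPM, and the change of 2.72 ± 0.87 was not called (edgeR adjusted p = 0.202). With the replicate number as a block, the change of 2024 was called (2.56, edgeR adjusted p = 5.19e-06). The difference between years was not called either (-0.71 ± 1.14, edgeR adjusted p = 0.949). Leaving out CF leaf 1 of 2023 moved the adjusted p of 2023 to 0.0506.

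The main glyoxylate aminotransferases had opposite signs. GGAT (Os07g0108300), which moves the amino group of glutamate to glyoxylate, was at 1990 ± 130 and 2333 ± 316 CPM in CF and GM of 2023 and at 2425 ± 213 and 2983 ± 238 CPM in 2024, with log2 fold changes of 0.22 ± 0.13 and 0.29 ± 0.11 (edgeR adjusted p = 0.454 and 0.199). SGAT (Os08g0502700), which uses serine as the donor and makes hydroxypyruvate, was at 2305, 2563, 2601 and 2533 CPM with CF and 1490, 2275, 2159 and 2322 CPM with GM in 2023. In 2024 it was at 2148, 2048 and 2048 CPM with CF and 1645, 1853 and 1827 CPM with GM. The GM leaves of 2024 all lay below the CF leaves, while in 2023 GM leaf 4 reached just above the lowest CF leaf. The log2 fold changes of SGAT were -0.28 ± 0.15 and -0.24 ± 0.10 (edgeR adjusted p = 0.382 and 0.237), and with plain library totals they were called in both years (-0.47 and -0.46, adjusted p = 0.0492 and 0.0152). Os03g0171900, a further aminotransferase-like gene, was at 60.8, 63.8, 66.9 and 50.8 CPM with CF and 16.2, 19.8, 50.3 and 40.4 CPM with GM in 2023, which are groups without overlap, and was not called (-0.94 ± 0.37, edgeR adjusted p = 0.291). Without GM leaves 1 and 2 of 2023, its change was -0.42 (adjusted p = 0.049).

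The other photorespiratory enzymes gave no call between treatments in either year. GLO1 (Os03g0786100), the glycolate oxidase gene with the most reads, was at 1919 ± 186 and 2294 ± 381 CPM in CF and GM of 2023 and 2874 ± 134 and 3482 ± 266 CPM in 2024 (log2 fold changes 0.25 ± 0.14 and 0.27 ± 0.11, edgeR adjusted p = 0.431 and 0.212). GDCP (Os06g0611900), the glycine-decarboxylating P subunit, was at 2835 ± 190 and 2787 ± 281 CPM in 2023 and 3909 ± 274 and 3706 ± 265 CPM in 2024 (-0.03 ± 0.13 and -0.09 ± 0.11, edgeR adjusted p = 0.943 and 0.752). SHMT1 (Os03g0738400), which makes serine from glycine, was at 2779 ± 239 and 3467 ± 369 CPM in 2023 and 4724 ± 260 and 5840 ± 322 CPM in 2024. The GM leaves of SHMT1 lay above the CF leaves in both years, by 0.31 ± 0.13 and 0.30 ± 0.11 (edgeR adjusted p = 0.273 and 0.167). OsHPR1 (Os02g0101500), the peroxisomal hydroxypyruvate reductase, differed by 0.09 ± 0.13 and 0.05 ± 0.10 (edgeR adjusted p = 0.792 and 0.875).

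GLYR1 (Os02g0562700), a glyoxylate reductase, was at 89.9 ± 7.48 and 114 ± 13.7 CPM in 2023 and 195 ± 4.78 and 245 ± 12.6 CPM in 2024. Its leaves did not overlap in either year, with log2 fold changes of 0.34 ± 0.11 and 0.31 ± 0.09 (edgeR adjusted p = 0.111 and 0.0723). Among the alternatives, GLYR1 was called in 2023 in 1 fit of all libraries (edgeR adjusted p = 0.0466). In 2024 it was called by DESeq2 (adjusted p = 0.0468) and by edgeR without GM leaf 1 (0.0218) and with the replicate number as a block (0.0266). In all, 4 members had every GM leaf above every CF leaf in both years, namely PGK2, OsGAPB, SHMT1 and GLYR1, out of 48 tested in both, against 2.34% of all genes tested in both. In the opposite direction 0 members did so in both years, against 1.43%. By year, 7 members had every GM leaf above every CF leaf in 2023, where 5.35% of all tested genes did, and 16 in 2024, where 11.8% did. Every GM leaf lay below every CF leaf for 1 member in 2023 and 2 in 2024, where 4.61% and 10.9% of all genes did. Os03g0102400, the member with the most reads among 4 whose names match the search but which are other enzymes, was at 19.6 ± 2.58 and 17.7 ± 2.29 CPM in 2023 and 16.2 ± 1.28 and 17.4 ± 0.511 CPM in 2024.

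Read by pathway, the shares of all reads moved differently. The 29 members of the Calvin cycle steps, which include cytosolic isoforms, took 5.68, 4.76, 6.17 and 6.42% of reads in CF leaves of 2023 and 5.25, 7.10, 6.88 and 6.98% in GM leaves. In 2024 they took 9.63, 9.32 and 9.53% with CF and 9.96, 11.9 and 11.3% with GM, without overlap. The 26 photorespiration members took 1.99 to 2.11% with CF and 1.78 to 2.08% with GM in 2023, and 2.16 to 2.22% with CF and 2.06 to 2.11% with GM in 2024. In 2024 the GM shares thus lay above the CF shares for these 29 members and below them for photorespiration. Of the 29, the 5 small subunit loci went from a mean of 3.19% with CF to 4.64% with GM in 2024, while RCA took 4.17 and 4.04%. For the small subunit loci, GM leaf 1 of 2024 at 3.344% was barely above CF leaf 3 at 3.335%. The 45 members other than Rubisco subunits, activase and methyltransferases took 4.27 and 4.38%. The share of the light reaction list, 71 chlorophyll-binding and photosystem genes, also moved, from 9.01 to 10.5% with CF to 11.9 to 15.8% with GM in 2024. When reads of the members and of the light reaction list were left out of the denominator, the ratio of GM to CF for the photorespiration members went from 0.958 to 1.02 in 2023 and from 0.953 to 1.02 in 2024. That for the Calvin cycle steps went from 1.14 to 1.21 and from 1.16 to 1.25.

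**Figure D3:**
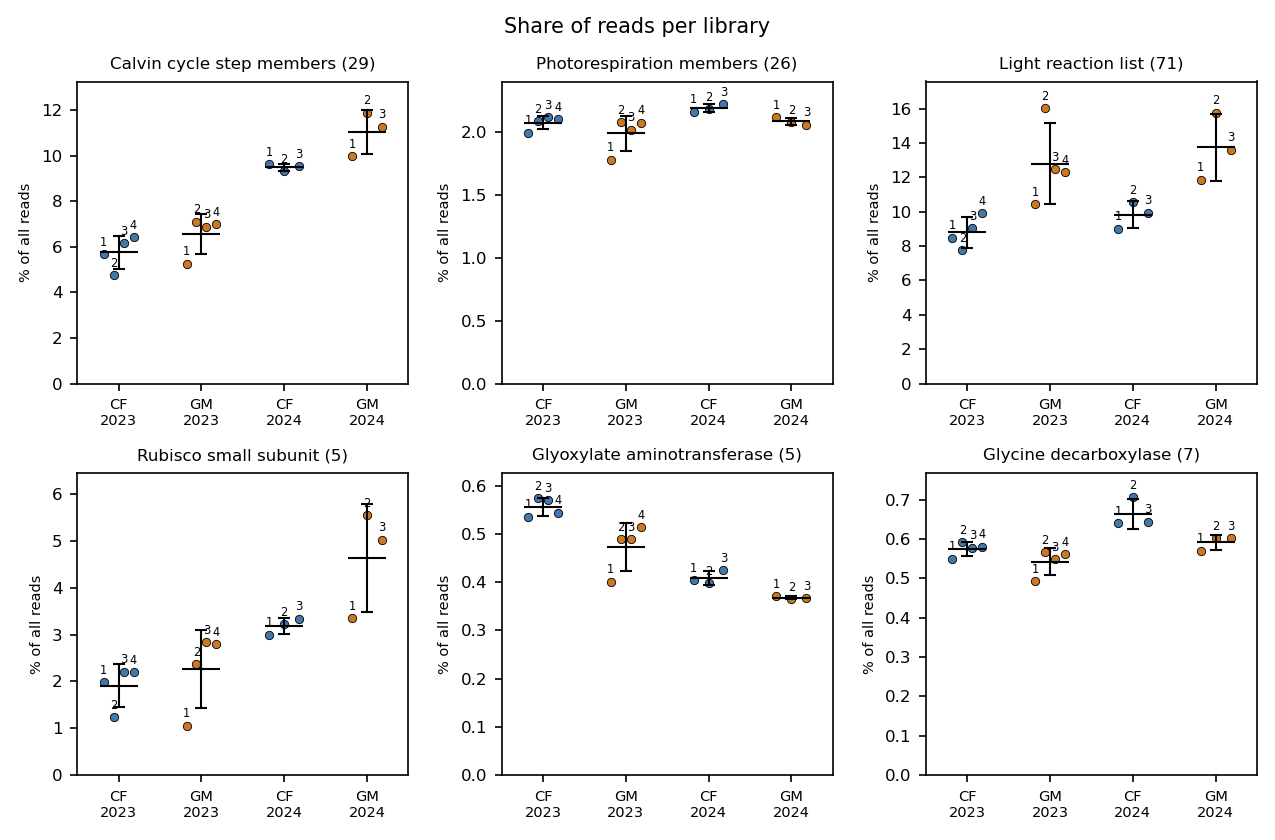
Percentage of all reads taken by 6 gene groups in each library, with the leaf number beside each point, the mean as a bar and the SD as an error bar, and the number of loci in brackets. In 2024 the GM leaves lie above the CF leaves for the Calvin cycle steps, the small subunit and the light reaction list, and below them for photorespiration, the glyoxylate aminotransferases and glycine decarboxylase. For the small subunit, GM leaf 1 of 2024 is barely above the highest CF leaf.

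Genes around the 2 pathways were compared by lists that do not hold the members. Of 16 genes of regeneration and export, 0 were called in 2023 and 3 higher in 2024, with medians of 0.23 and 0.17. These were the ribose-phosphate isomerases OsRPI (log2 fold change 0.77 ± 0.105, edgeR adjusted p = 0.00322) and Os03g0781400 (0.57 ± 0.13, adjusted p = 0.0399), and the aldolase Os12g0169600 (0.61 ± 0.12, adjusted p = 0.0197). OsRPI was called under every alternative run, while the calls of Os03g0781400 and Os12g0169600 were lost without any 1 leaf of 2024 other than GM leaf 1 (adjusted p of 0.0787 to 0.155 and 0.0554 to 0.114) and in 1 fit of all libraries (0.0512 and 0.121). With scaling by totals alone Os03g0781400 had 0.34 (adjusted p = 0.0867). Of the Rubisco assembly and CO2 supply list, 0 of 14 tested genes were called in 2023 and 1 of 15 in 2024, OsCP12 (0.38 ± 0.08, edgeR adjusted p = 0.0306), a small protein that binds GAPDH and phosphoribulokinase in the dark. The call of OsCP12 was lost without any 1 leaf of 2024 other than GM leaf 1 (adjusted p of 0.0842 to 0.131), in 1 fit of all libraries (0.077) and with scaling by totals alone (0.16, adjusted p = 0.249). Of 6 further cycle enzymes that the search terms missed, which were picked after the tables were seen, none was called in either year (medians 0.15 and 0.13).

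Of the photorespiratory partners, 3 of 22 tested genes were higher and 1 lower in 2023, and 5 higher and 1 lower in 2024. The ammonium-assimilating cytosolic glutamine synthetase gene GLN1;2 was higher in both years (log2 fold changes 1.17 ± 0.17 and 0.67 ± 0.12, edgeR adjusted p = 0.00341 and 0.0137). PC1, a phosphatase of the catalase CatC, rose by 0.51 ± 0.12 and 0.48 ± 0.10 (edgeR adjusted p = 0.0359 and 0.0259). Os09g0469950, described as a plastid dicarboxylate transporter, rose in both years (0.62 ± 0.15 and 0.39 ± 0.09, edgeR adjusted p = 0.0383 and 0.0348), and the glutamine synthetase-like Os10g0456500 rose in 2024 (0.39 ± 0.09, adjusted p = 0.0309). The remaining named calls, Os01g0623200 in 2023 (-0.95 ± 0.24, edgeR adjusted p = 0.05 after rounding) and CCH in 2024 (2.02 ± 0.27, adjusted p = 0.0156), matched the word dicarboxylate. Whether these 2 genes, or the others named from this list, serve photorespiration was not tested. Only the 2023 call of GLN1;2 among these held under every alternative run. In 2024 GLN1;2 was lost without CF leaf 1 or 2 (adjusted p = 0.0517 and 0.0595), in 1 fit of all libraries (0.0568) and by totals alone (0.0926). PC1 was lost in 2023 without CF leaf 1, 2 or 3 or GM leaf 2 (0.0608 to 0.133) and without GM leaves 1 and 2 (0.33, adjusted p = 0.0996), and in 2024 without CF leaf 1 or 2 or GM leaf 2 or 3 (0.0877 to 0.13). By totals alone PC1 had 0.32 and 0.26 (adjusted p = 0.112 and 0.12). Os09g0469950 was lost in 2023 without any 1 leaf but CF leaf 4 or GM leaf 2 (0.0532 to 0.131) and by totals alone (0.107), and its 2024 value was not repeated under alternatives. Os10g0456500 was lost without any 1 leaf but GM leaf 1 (0.0993 to 0.13), in 1 fit of all libraries (0.0965) and by totals alone (0.17, adjusted p = 0.259). Os01g0623200 was lost without any 1 leaf but GM leaf 3 (0.0507 to 0.176), without GM leaves 1 and 2 (0.101) and with a filter at 5 CPM (0.0541), and CCH without CF leaf 1 or 2 (0.0609 and 0.0591) and with no filter (0.0625).

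Many light reaction genes were called. Of 55 tested genes, 13 were higher and 1 lower in 2023, and of 56 in 2024, 15 were higher and 0 lower, with medians of 0.55 and 0.57. CAB2R, a chlorophyll-binding antenna protein, rose by 1.93 ± 0.27 and 1.45 ± 0.22 (edgeR adjusted p = 0.00336 and 0.0101), and PSBO, of the oxygen-evolving complex, by 1.11 ± 0.21 and 0.92 ± 0.14 (edgeR adjusted p = 0.0142 and 0.00583). LHCB2.1 rose by 1.02 ± 0.20 and 0.89 ± 0.15 (edgeR adjusted p = 0.0115 and 0.00968), and PSBP by 0.85 ± 0.20 and 0.84 ± 0.16 (adjusted p = 0.0417 and 0.0222). PSBS2, which serves photoprotection, fell in 2023 (-0.77 ± 0.12, edgeR adjusted p = 0.00345). The calls of CAB2R and PSBS2 held under every alternative run. Adjusted p was above 0.05 for LHCB2.1 without CF leaf 1, 2 or 3 in 2023 (0.0575 to 0.0628) and without CF leaf 1 or 3 in 2024 (0.0767 and 0.0527), and for PSBO without CF leaf 1 or 3 in 2023 (0.0677 and 0.0607) and without CF leaf 1 in 2024 (0.0562). That of PSBP in 2024 was above it without CF leaf 1, 2 or 3 or GM leaf 3 (0.0613 to 0.114) and in 1 fit of all libraries (0.0652), and its 2023 value was not repeated under alternatives. The difference between this list and the members was not tested. Of the redox list, mostly thioredoxin-fold proteins, 0 of 29 were called in 2023 and 2 of 30 were lower in 2024, GRX2 (-0.71 ± 0.10) and GRX16 (-1.11 ± 0.14), each with an edgeR adjusted p of 0.00322.

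The glycolysis list holds genes whose descriptions match names of glycolytic enzymes, some only through a domain name. It gave 4 of 48 higher in 2023 and 3 of 48 higher in 2024. In either year 0 were lower, and the median was 0.12 in both. The phosphoglycerate mutase-domain gene Os01g0237100 rose by 0.62 ± 0.12 and 0.58 ± 0.09 (edgeR adjusted p = 0.0115 and 0.0062), the enolase OsEno5 by 0.57 ± 0.12 and 0.54 ± 0.10 (adjusted p = 0.017 and 0.0151), and the pyruvate kinase-like Os12g0189300 by 0.89 ± 0.16 and 0.72 ± 0.14 (adjusted p = 0.00873 and 0.0186). Os11g0150100, a further mutase-domain gene, rose in 2023 (0.42 ± 0.10, edgeR adjusted p = 0.0339), a call lost without CF leaf 1, 2 or 3 or GM leaf 4 (0.0603 to 0.141) and with scaling by totals alone (0.23, adjusted p = 0.167). Without CF leaf 1, 2 or 3 of 2023 the calls of that year were also lost for Os01g0237100 (0.0519 to 0.0628) and OsEno5 (0.0654 to 0.0879). In 2024 OsEno5 was lost without CF leaf 1 or 2 (0.0942 and 0.0824) and by totals alone (0.32, adjusted p = 0.0885), and Os12g0189300 without CF leaf 1, 2 or 3 or GM leaf 3 (0.0578 to 0.114). None of the 9 genes of the oxidative pentose phosphate pathway was called (medians 0.01 and 0.06).

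No member was called for a difference in the effect of green manure between the years. In the edgeR fit of all 14 libraries, 0 of 50 members passed the interaction test, against 0.0101% of 19805 genes, 0.00505% with a larger and 0.00505% with a smaller effect in 2024. At an unadjusted p under 0.05 there was 1 member, SHMT5, against 6.32% of all genes, and the count by DESeq2 was 0. Of the 48 members tested in both years, 30 had a positive fold change in both, 9 a negative one in both, 4 went from positive to negative and 5 from negative to positive. Of all 18227 genes tested in both years, 30.4% were positive in both and 31.4% negative in both.

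More members were called between the years than between the treatments. With CF, 23 of 50 tested members were higher in 2024 than in 2023 and 7 lower, against a background of 39.9% of all genes called, 19.5% higher and 20.4% lower. With GM, 24 were higher and 6 lower, against 37.8% of all genes called, 18.6% higher and 19.1% lower. Of these, 22 were higher and 6 lower under both treatments, and 0 were called in opposite directions, while of all genes 14.5% were higher and 13.7% lower under both. Year cannot be told apart from days after transplanting, season and the table in which the counts were deposited, nor, for GM, from the vetch sowing rate. With plain library totals the median of all genes shifted by -0.49 (CF) and -0.52 (GM), and 12 members were higher and 19 lower with CF and 14 higher and 16 lower with GM. Of all 19805 genes, 11522 were then called with CF and 11677 with GM, in either direction. On that scale the medians of the members, -0.05 and -0.08, again lay above those of all genes.

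ALDH11A3 (Os08g0440800), a non-phosphorylating GAPDH, had the smallest p of the year contrasts. It was at 465, 431, 471 and 510 CPM with CF in 2023 and 1189, 1170 and 1235 CPM with CF in 2024, a log2 change of 1.35 ± 0.10 (edgeR adjusted p = 5.15e-09). With GM it went from 535 ± 36.4 to 1399 ± 46.4 CPM (1.39 ± 0.10, edgeR adjusted p = 4.19e-09). GLYR1 rose by 1.12 ± 0.10 with CF and 1.10 ± 0.10 with GM (edgeR adjusted p = 6.11e-08 and 9.1e-08). RCA rose from 17961 ± 2294 to 46280 ± 2738 CPM with CF and from 22810 ± 4243 to 52415 ± 2247 CPM with GM, by 1.37 ± 0.16 and 1.20 ± 0.16 (edgeR adjusted p = 1.28e-06 and 6.3e-06). Every leaf of 2024 lay above every leaf of 2023 for these 3 genes, under either treatment. The same held for 23.7% of all 19805 tested genes with CF and for 19.1% with GM.

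SHMT2 rose by 0.91 ± 0.11 and 1.00 ± 0.11 (edgeR adjusted p = 1.7e-06 and 5.74e-07), and its group means moved from 201 ± 17.2 to 376 ± 1.84 CPM with CF and from 215 ± 24.9 to 431 ± 35.6 CPM with GM. RBCS rose by 1.72 ± 0.38 and 1.73 ± 0.38 (edgeR adjusted p = 0.00338 and 0.00347). RBCS3 rose with GM (1.39 ± 0.30, edgeR adjusted p = 0.00241) and was not called with CF (0.55 ± 0.30, adjusted p = 0.167).

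Within several enzyme families, isoforms were called in opposite directions between years. SHMT3 was at 46.8, 48.1, 47.8 and 44.7 CPM with CF in 2023 and 23.9, 20.2 and 20.7 CPM in 2024, and fell by 1.12 ± 0.15 on the log2 scale with CF and by 1.15 ± 0.15 with GM (edgeR adjusted p = 9.65e-06 and 8.53e-06). SHMT1 and SHMT2 rose, so the SHMT genes did not change as 1 group. PGK4 fell by 0.95 ± 0.16 with CF and 1.01 ± 0.17 with GM (edgeR adjusted p = 0.000122 and 0.000118), whereas PGK3 rose by 0.83 ± 0.19 and 1.00 ± 0.19 (adjusted p = 0.00209 and 0.000458). Of the glycolate oxidases, named here as in the CGSNL symbols, GLO1 rose by 0.58 ± 0.13 and 0.60 ± 0.13 and GLO5 (Os07g0152900) by 0.86 ± 0.12 under both treatments. GLO4 (Os07g0616500) fell by 0.46 ± 0.10 and 0.70 ± 0.10, and GLO6 (Os08g0198700) fell by 0.53 ± 0.11 and 0.52 ± 0.11 (edgeR adjusted p between 1.76e-05 and 0.0016 for the 4 genes with either treatment). The year changes of GLO1, GLO5, PGK3 and SHMT1 were not repeated gene by gene under alternatives. With plain library totals fewer members were called higher between years, 12 with CF and 14 with GM.

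The year contrasts also differed by the number of reads per gene. Of 21 members with a mean of at least 500 CPM, 16 were higher in 2024 with CF and 18 with GM, and 0 were lower. Of all 244 genes with as many reads, 66.0% were higher and 2.9% lower with CF, and 67.2% and 5.3% with GM. Of 29 members under 500 CPM, 7 were higher and 7 lower with CF, and 6 and 6 with GM, while of all such genes 18.9% were higher and 20.6% lower with CF and 18.0% and 19.3% with GM. SGAT stood among the members with many reads but was not called between years (-0.26 ± 0.14 with CF and -0.22 ± 0.14 with GM, edgeR adjusted p = 0.129 and 0.22), nor was the cytosolic GAPC (0.07 ± 0.10 and -0.05 ± 0.10, adjusted p = 0.626 and 0.725).

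**Figure D4:**
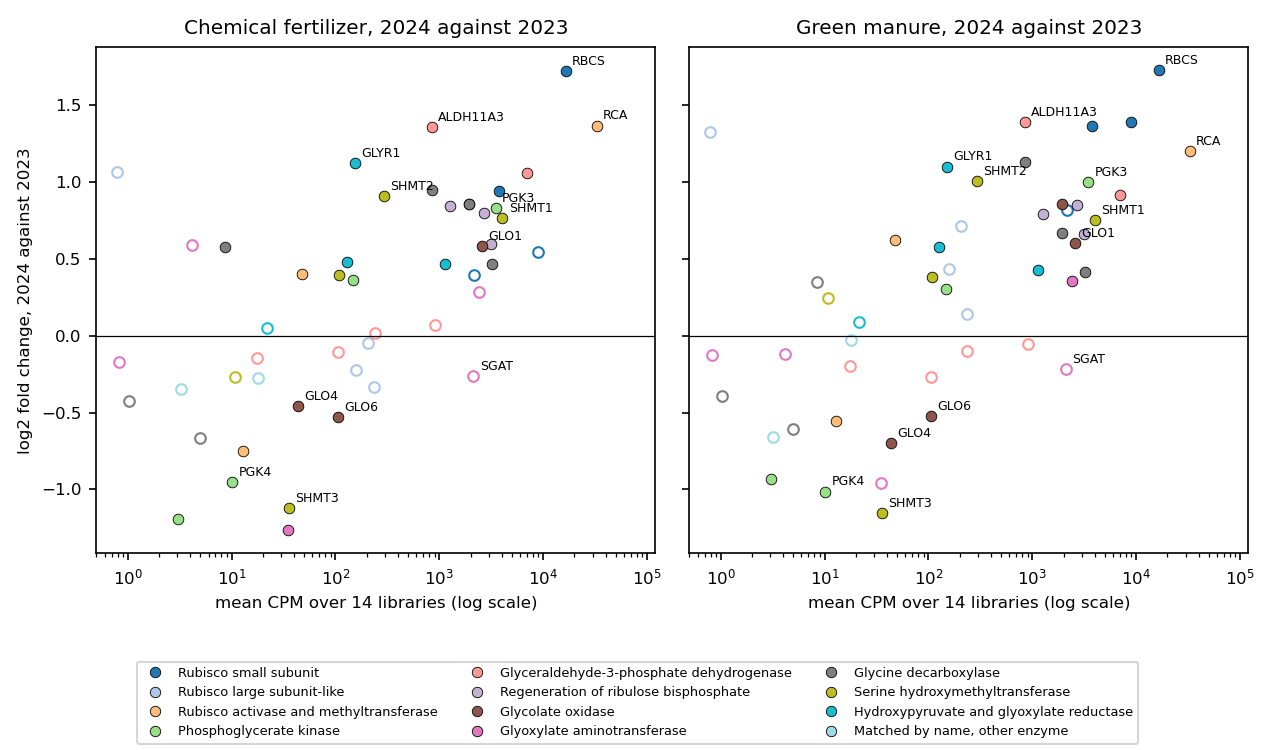
Log2 fold change of 2024 against 2023 for the 50 tested members (vertical) against their mean CPM over 14 libraries (horizontal, log scale), with CF on the left and GM on the right. Colours are enzyme groups and filled points have an adjusted p under 0.05. RBCS lies highest in both panels, and SHMT3, PGK4, GLO4 and GLO6 lie below 0, while SGAT is an open point below 0 among genes with many reads.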

How the data were processed

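The deposited values are raw read counts per locus of the Rice Annotation Project, made by the authors against genome build IRGSP-1.0, per the submitters' processing notes. They are unique exon reads, per the labels. For the aligner, the counting tool and its strand setting, the sources used here give nothing, so overlapping and antisense genes cannot be told apart from the members. PolyA RNA of single leaves was made into directional libraries, per the labels' protocols. Of the columns, 2 that the labels do not describe were not used. The tables hold 0 rows without a gene name.

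Members, enzyme groups, lists and tests were chosen with earlier results of these data known. Members were found by searching the descriptions, and symbols are those in the tables. Counts were filtered (filterByExpr, minimum count 10, minimum total 15), scaled by TMM and tested in R 4.3.3 by edgeR 4.0.16 (quasi-likelihood F-test) with robust dispersion, within each year for the treatments and over all 14 libraries for the interaction and the years. Adjusted p-values are Benjamini-Hochberg over all genes tested, and errors of log2 fold changes are the fold change over the square root of its F. CPM use TMM factors of all 14 libraries, and shares use raw counts. The genes named are all members called between treatments or for the interaction, the member with the most reads in each enzyme group, the 3 with the smallest p in each direction of each year contrast, and up to 4 called genes of each other list and year. Alternatives were DESeq2 1.42.0, its size factors, plain library totals, no filter, a filter at 5 CPM, the replicate number as a block, 1 fit of all libraries, another denominator for shares, each library left out, and GM leaves 1 and 2 of 2023 left out together. The pipeline was tested on simulated data. No sequence or coordinate is printed, since no genome of this build was used here.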

Additional observations from a re-analysis of the deposited data

Results flagged for a closer look

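In groups of 4, a leaf was marked where its gap to the nearest other leaf, as a share of the group's range, passed Dixon's 95% critical value, which chance does in about 1 of 20 groups. Of 80 groups examined, 10 were marked, all in GM of 2023, and many of them share genes and the same leaf. GM leaf 1 of 2023 was the lowest for RBCS (3858 CPM, the others 12110 to 12360), RBCS3 (3370 CPM, the others 7511 to 7832), RBCS4 (1526 CPM, the others 3055 to 3360) and SHMT2 (177.8 CPM, the others 225.7 to 229.6). The same leaf had the lowest share of reads for all members (7.03%), for the Calvin cycle step members (5.25%), for the regeneration enzymes (0.557%) and for the hydroxypyruvate and glyoxylate reductases (0.119%). GM leaf 2 of 2023 was the highest for OsGAPB (7129 CPM, the others 5385 to 5461) and GLO6 (145.3 CPM, the others 112.1 to 117.0). No member was called for a difference of the treatment effect between years.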

How the results depend on the processing

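Calls between treatments depended on single leaves. Members called higher with GM numbered 0 to 4 in 2023 when 1 leaf was left out (0 without CF leaf 1, 4 without GM leaf 1) and 0 to 11 in 2024 (11 without GM leaf 1, 0 without any other leaf), while all genes called went from 149 to 666 and from 162 to 1603. In 2024, log2 fold changes over all alternatives run were 0.87 to 1.36 for RBCS3, 0.64 to 1.06 for RBCS4 and 0.44 to 0.83 for PGK3, and in 2023 that of Os03g0338000 was 2.82 to 3.95. DESeq2 called 4 higher in 2023 and 6 in 2024. The filter at 5 CPM called 0 in 2023, where Os03g0338000 did not pass that filter and so was not tested. In 1 fit of all libraries, 4 were called in 2023 (PGK2, OsGAPB, GLYR1 and Os03g0338000) and 0 in 2024. All genes called in that fit numbered 723 and 429. Plain totals called 1 lower in each year (SGAT). Without GM leaves 1 and 2 of 2023, 2 were higher and 1 was lower. Whether replicate numbers pair leaves is not in the labels. Same-number correlations were -0.107 to 0.139 in 2023 and -0.00517 to 0.288 in 2024, and those of other pairs -0.206 to 0.272 and -0.307 to 0.145. These few values do not settle the pairing. The replicate block gave 1 member higher in 2023 and 10 in 2024. All genes called with the block numbered 344 and 1616, against 460 and 626 without it. Among the 10 were Os03g0338000 (edgeR adjusted p = 5.19e-06) and the large subunit-like OsrbcL1, Os01g0791033 and Os12g0207600 (0.000262, 0.00334 and 0.00646). The others were RBCS, RBCS4, PGK3, OsGAPB, RPE and GLYR1. With the block RBCS3 (0.0688) and CCH (0.0618) were lost in 2024, and PC1 and Os11g0150100 in 2023 (0.0894 and 0.0812). For the years, plain totals gave 12 higher and 19 lower with CF and 14 and 16 with GM, while all genes called numbered 11522 and 11677. Leaving out 1 leaf gave 22 to 24 higher and 6 to 9 lower with CF and 22 to 25 and 4 to 8 with GM. The interaction gave 0 members throughout. Signs turned, without a call, for OsHPR1 (-0.0963 in 2023 and -0.1643 in 2024 with plain totals, and -0.008 to 0.0905 in 2024 with 1 leaf left out), RCA (-0.0458) and Os03g0102400 (-0.1193) in 2024 with plain totals, and GDCP in 2023 (-0.0992 to 0.0115 with 1 leaf left out). The causes were not tested. Os03g0338000 rests on 3 to 210 reads per leaf.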
